A study of Mus musculus with 6 samples.

Results

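The genes described here are Cdkn1b and Cdk7, 2 of the 445 mouse genes for which a custom 60-mer microarray carried artificial antisense sequence (AFAS) probes, that is, probes that hybridize to RNA transcribed from the strand complementary to the annotated mRNA. Their probes were found by gene symbol or accession, and the strand code in the probe name separated sense from AFAS probes. This gave 1 sense and 5 AFAS probes for Cdkn1b and 1 sense and 3 AFAS probes for Cdk7. Both genes were chosen because their signals on these same arrays were known. Cdkn1b was 1 of the 2 genes, with Ryk, that had a sense and an AFAS probe past an adjusted p of 0.05 in limma. Cdk7 was 1 of 7 genes that had a sense and an AFAS probe higher in tumors by the methods' t-test, run on linear signals and left unadjusted. Their differences between tumor and normal gland are therefore given as a description, without a test.

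The samples were 4 mammary tumors and 2 normal mammary glands of the GRS strain of mice (GRS/A), 1 array each, from total RNA that was labelled with Cy3 after random priming. In this strain the tumors are induced by the mouse mammary tumor virus, a retrovirus that activates genes near its insertion sites. The labels give no age and no treatment, leave open if the samples are from separate animals, and name brain in the extraction protocol while their titles name mammary tissue. The p-values for other genes below therefore measure the spread between these samples, which may be technical. Signals are in arbitrary units, and 5 is the floor to which the authors set a signal that was lower or not significantly above background. Tumors 3 and 4 were hybridized on 1 slide and tumors 1 and 2 on slides of their own.

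Cells divide when cyclin-dependent kinases are switched on by cyclins and by phosphorylation, and they stop when inhibitors bind these kinases. Cdkn1b encodes p27Kip1, an inhibitor that binds cyclin E-Cdk2 and other cyclin-kinase complexes and holds cells in G1. Its protein level is set largely by degradation, and loss of p27 protein is known from breast cancer. Cdk7 is the catalytic subunit of the Cdk-activating kinase, which it forms with cyclin H and Mat1. This complex phosphorylates other cyclin-dependent kinases and, as a part of the transcription factor TFIIH, the C-terminal domain of RNA polymerase II.

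The probes that carry the differences are shown first, 5′ to 3′ as they were printed on the array. Probes that may lie in an untranslated region are given by their first 30 bases.
Cdkn1b sense: gatgccagtagcaatcttcttcccgaagct
Cdkn1b AFAS probe 02: gcttgggaacctcattctgattccacttta
Cdk7 sense, linked by place: gtacaaggataactgcagtctctaaaatgt
The AFAS probes that lie within coding sequence are given whole, because they are antisense to the part of the mRNA that is translated. The capitals mark the longest stretch that each shares with a probe of another gene.
Cdkn1b AFAS probe 03: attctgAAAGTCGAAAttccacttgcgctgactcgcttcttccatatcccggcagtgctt
Cdk7 AFAS probe 01: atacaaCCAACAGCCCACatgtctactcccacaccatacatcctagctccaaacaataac
Cdk7 AFAS probe 02: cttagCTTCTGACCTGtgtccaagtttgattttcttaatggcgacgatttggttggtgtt
None of the 10 probes shared a stretch of more than 12 of its 60 bases with a named probe of another gene. Between a sense probe and the AFAS probes of the same gene, the longest complementary stretch was 8 bases for Cdkn1b and 7 bases for Cdk7, so sense and AFAS probes reported on different parts of each gene. The GC content of the 10 probes ranged from 41.7% to 53.3%, against a median of 43.3% over all sense and 45.0% over all AFAS probes.

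The sense transcript of Cdkn1b was higher in every tumor than in both normal glands. Its signal was 3454 in tumor 1, 2408 in tumor 2, 1485 in tumor 3 and 4536 in tumor 4, against 470 and 246 in normal glands 1 and 2. Tumor 3 was the lowest of the tumors and was still 3.16-fold above the higher normal gland. Tumors averaged 2971 ± 1317 (SD, n = 4) and the glands 358 ± 158 (SD, n = 2), and on the log2 scale the difference was 3.01 with a standard error of 0.59. Of the 404 sense probes, 19 had a larger difference. Most sense probes were higher in tumors, with a median log2 difference of 0.91, and 14.4% of sense probes passed the adjusted threshold in limma in the direction of tumors. In 42.6% of them every tumor lay above both normal glands. Under quantile normalization the Cdkn1b difference was 2.67 and the median of the sense probes 0.50.

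The Cdk7 sense signal was lower and rested on a weaker identification. The probe came from the cDNA clone AK145759, is not named Cdk7 in the probe annotation, and was linked to the gene because its entry directly follows the Cdk7 AFAS probes in the value table. It read 118, 89.6, 90.5 and 129 in tumors 1 to 4. Normal gland 1 read 42.6, and normal gland 2 was at the floor of 5. The tumors lay close together, and all 4 were above both normal glands, the lowest of them 2.10-fold above normal gland 1. The log2 difference of 2.85 (SE 0.81) depended on the value at the floor: it was 1.30 without normal gland 2, 4.40 without normal gland 1, and 1.85 with a floor of 20. With the methods' t-test, by which Cdk7 was chosen, 13.2% of sense probes and 4.25% of AFAS probes were higher in tumors before adjustment. In that test 53 sense probes were higher and 11 lower, and 74 AFAS probes were higher and 85 lower.

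**Figure D1:**
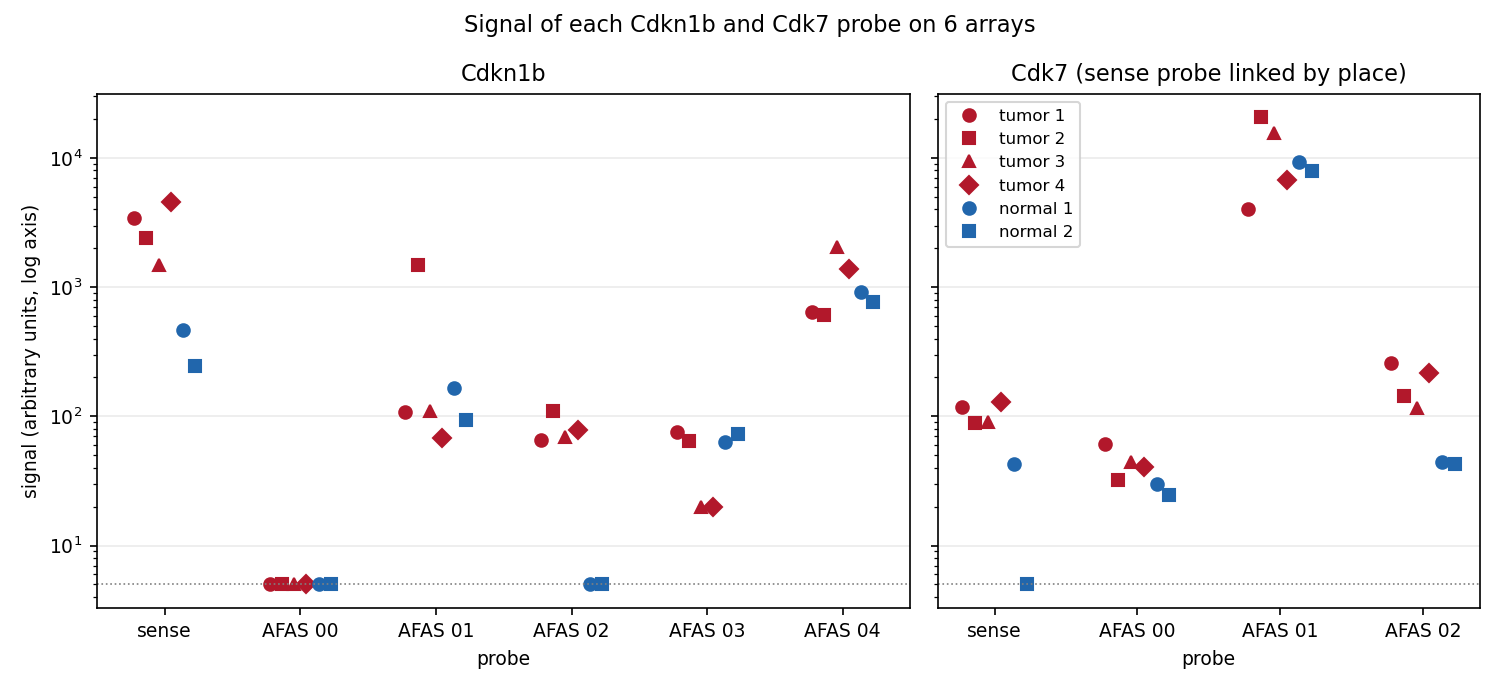
Signal of each probe of Cdkn1b (left) and Cdk7 (right) on a log axis, 1 point per array, with tumors in red, normal glands in blue and the floor of 5 as a dotted line. The 4 tumors lie above both normal glands at the sense probes, at Cdkn1b AFAS 02 and at Cdk7 AFAS 00 and 02, and overlap them at the other probes above the floor.

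The AFAS probes of Cdkn1b gave 4 different patterns. Probe 02 had a signal in every tumor and in neither normal gland. It read 65.1, 109, 69.8 and 78.1 in tumors 1 to 4, and both normal glands were at the floor of 5. It was well above background on all 4 tumor arrays, and 1 of the 4 signals reached 100, the level that the study used as an empirical criterion for a signal in normal tissues. Because both normal glands were at the floor, the size of the difference is not known: the fitted log2 value was 3.98 with the floor of 5 and 1.98 with a floor of 20. It was 1 of 8 AFAS probes, 0.457% of 1750, that passed the adjusted threshold in the direction of tumors, which is the call by which Cdkn1b was chosen.

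Probe 01 of Cdkn1b was high in a single tumor. Tumor 2 read 1487, 8.96-fold above the next array, whereas tumors 1, 3 and 4 read 107, 109 and 68.5 and the normal glands 166 and 93.8. The groups overlapped, and the log2 difference of 0.58 (SE 1.28) turned to -0.43 without tumor 2. This probe varied more among the tumors than 97.0% of AFAS probes, with a standard deviation of 2.02 on the log2 scale.

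Probes 03 and 04 of Cdkn1b separated tumors 1 and 2 from tumors 3 and 4, in opposite directions. Probe 03, antisense to the coding sequence shown above, read 76.0 and 64.9 in tumors 1 and 2 and 19.8 and 19.9 in tumors 3 and 4, with 63.0 and 72.7 in the normal glands. After normexp background correction with an offset of 50, the standard deviation of its log2 signals among tumors was 0.17 in place of 1.05. Such an offset by itself narrows the log2 spread of a signal this dim, and its part in the drop was not tested. Probe 04 read 638 and 604 in tumors 1 and 2 and 2054 and 1371 in tumors 3 and 4, with 924 and 770 in the normal glands. At probe 03 the first pair lay at the level of the normal glands, and at probe 04 the normal glands lay between the pairs. Tumors 3 and 4 are those on 1 slide, and the part of the slide in this pattern was not tested. Over all tumors the log2 difference was -0.86 (SE 0.72) for probe 03 and 0.28 (SE 0.62) for probe 04, and the latter turned to -0.19 under quantile normalization and to -0.12 when arrays were scaled to their 75th percentile. Probe 00 was at the floor on all 6 arrays.

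The AFAS probes of Cdk7 separated the groups to different degrees. Probe 02, antisense to coding sequence, read 259, 144, 116 and 218 in tumors 1 to 4 and 44.3 and 42.8 in the normal glands. All 4 tumors lay above both normal glands, the lowest of them 2.61-fold above the higher gland, and the log2 difference was 2.01 (SE 0.47). Tumors 1 and 4 were the highest at this probe, as they were at the sense probes of Cdk7 and Cdkn1b.

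Probe 01 of Cdk7 was bright in both groups. It read 4057, 20790, 15550 and 6804 in tumors 1 to 4 and 9365 and 7931 in the normal glands, with no spot saturated on the tumor arrays. Tumors 2 and 3 lay above and tumors 1 and 4 below both normal glands, whereas at probe 02 tumors 1 and 4 were the highest. The log2 difference was 0.17 (SE 0.74) and turned to -0.23 when arrays were scaled to their 75th percentile. Probe 00 was dim, at 61.1, 32.3, 44.0 and 40.3 in tumors and 29.8 and 24.5 in normal glands. Its groups did not overlap, but the lowest tumor was 1.08-fold above the higher normal gland, and the log2 difference of 0.68 (SE 0.42) was 0.24 under quantile normalization.

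In all, 3 of the 8 AFAS probes of these genes had every tumor above both normal glands, against 21.6% of all AFAS probes. No reading is drawn from this count, since the genes were chosen on this contrast. On the tumor arrays, 37 of 40 spots of the 10 probes were significantly above background, and 22 of 40 had a signal of at least 100. The spot error that the scanner software estimated was at most 22.6% of the signal for the 9 probes above the floor. It leaves out differences between labellings, hybridizations and slides.

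**Figure D2:**
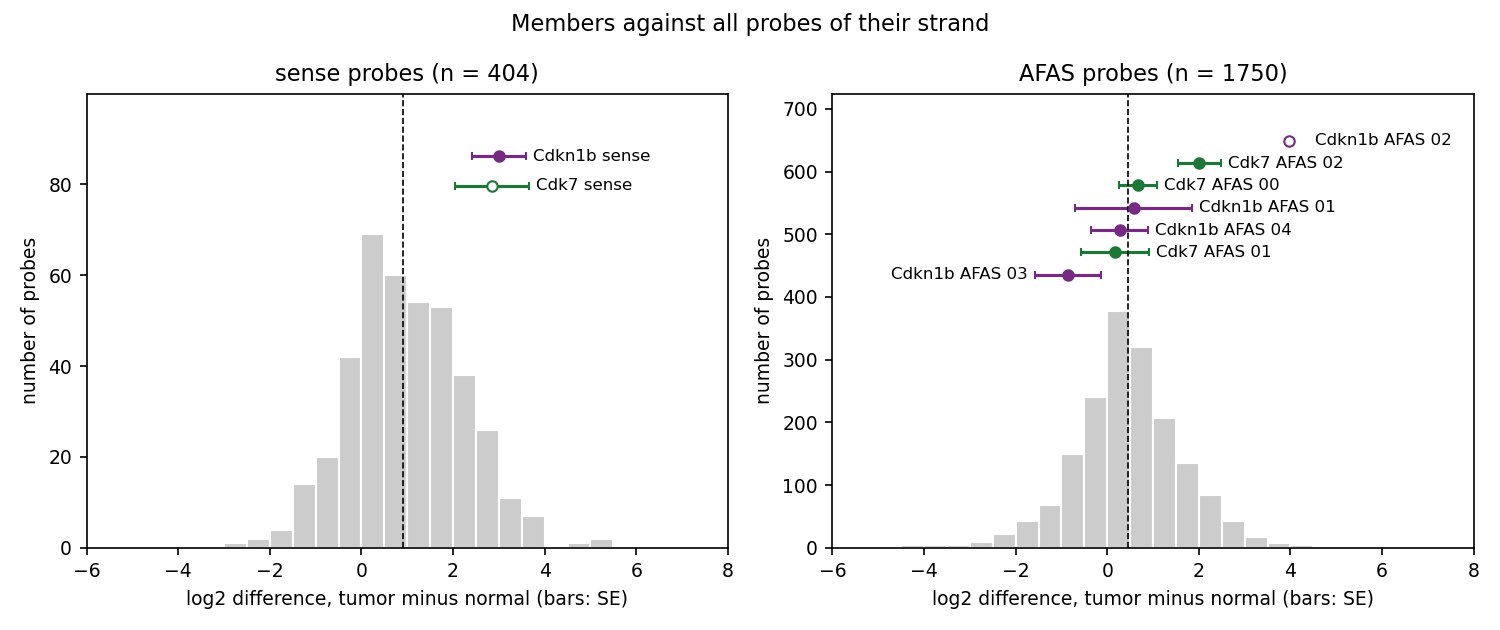
Log2 difference between 4 tumors and 2 normal glands, with standard errors, for the Cdkn1b probes (purple) and Cdk7 probes (green) above the histogram of all sense probes (left) and all AFAS probes (right), whose medians are dashed lines. Cdkn1b AFAS 00, at the floor on every array, is not drawn as a point. Open points depend on the floor: Cdkn1b AFAS 02, drawn without an error bar, had both normal glands at the floor, and Cdk7 sense had 1 and moved to 1.30 without it. Cdkn1b sense lies in the right tail, and the other AFAS probes except Cdk7 AFAS 02 lie near the median or, for Cdkn1b AFAS 03, to its left at -0.86.

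The tests that chose the genes divide by the spread within the groups, so a small variation among tumors favoured a choice, and the ranks that follow are a description. On the log2 scale the standard deviation over the 4 tumors was 0.70 for the Cdkn1b sense probe, larger than that of 44.3% of sense probes, and 0.27 for the Cdk7 sense probe, larger than that of 5.94%. The Cdkn1b sense value was 0.46 without tumor 3, and with normexp background correction it was larger than that of 60.9% of sense probes. The Cdk7 sense value depended on the scaling: it was 0.40 with the 75th percentile and 0.41 with quantile normalization, larger than those of 12.1% and 16.1% of sense probes. Among the AFAS probes, Cdkn1b probe 01 had the largest standard deviation, 2.02, which fell to 0.38 without tumor 2. Cdk7 probe 01 followed at 1.08, and it was between 1.03 and 1.17 with the 75th percentile, quantile normalization and normexp background correction. For Cdkn1b probe 03 the value was 1.05 as deposited but 0.17 with normexp, whose offset of 50 narrows the spread of dim probes. The order of the low values was not stable either: Cdkn1b probe 02 was at 0.33 and Cdk7 probe 00 at 0.38, below the 0.54 of Cdk7 probe 02, whereas under quantile normalization these were 0.60, 0.52 and 0.49. Without tumor 2 the value of Cdkn1b probe 02 was 0.13, and without tumor 1 that of Cdk7 probe 00 was 0.23.

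Other genes of the cell cycle were taken from a list of 99 genes, of which 21 besides Cdkn1b and Cdk7 had a sense probe. Some of these probes, those of Cdk5, Wee1 and Ccna1 among them, were linked to their gene only by place, as that of Cdk7 was. Of these 21, 2 rose in tumors, 0 fell and 19 did not pass the adjusted threshold in limma, which is no larger a share than the 14.4% of all sense probes that rose, and the median log2 difference was 0.99 against 0.91 over all sense probes. Both genes that rose are cyclins that do not drive the division cycle in the way of cyclins A to E. Ccng1, a target of p53, read 3100, 1512, 1590 and 3871 in tumors 1 to 4 and 710 and 262 in normal glands (log2 difference 2.43, SE 0.63, adjusted p = 0.0414, limma). Ccng2, which is raised in cells that stop dividing, read 549, 440, 321 and 472 against 168 and 77.5 (1.94, SE 0.50, adjusted p = 0.0414, limma). Neither passed under quantile normalization (adjusted p = 0.078 for both, limma), and over all 15 fits run in limma their adjusted p ranged from 0.0275 to 0.40 for Ccng1 and from 0.0304 to 0.40 for Ccng2.

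The other inhibitors on the array gave smaller differences than Cdkn1b. Cdkn1c, which encodes p57, averaged 1865 ± 1711 (SD, n = 4) over the tumors and 824 ± 52.1 (SD, n = 2) over the glands, with tumor 3 the highest at 4329. Cdkn2c, which encodes p18 and inhibits Cdk4 and Cdk6, was 1873 ± 609 (SD, n = 4) against 1664 ± 17.3 (SD, n = 2). Their log2 differences were 0.75 (SE 0.80, adjusted p = 0.55, limma) and 0.11 (SE 0.47, adjusted p = 0.89, limma), and the groups overlapped for both.

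Among kinases, cyclins and transcription partners, several values were high without passing the threshold. Cdk5, a kinase known for its role in neurons, differed by 1.84 (SE 0.57, adjusted p = 0.060, limma), and Tfdp1, the partner of E2F factors, by 2.17 (SE 0.62, adjusted p = 0.053, limma). In both, every tumor lay above both normal glands. Ccnd1, the cyclin that activates Cdk4 and Cdk6, read 1120, 264, 2124 and 1456 in tumors and 401 and 264 in normal glands, so that tumor 2 was at the level of the normal glands (1.59, SE 0.83, adjusted p = 0.20, limma).

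Genes upstream of p27 and of the checkpoint were mixed. Akt1, a kinase that phosphorylates p27, differed by -0.26 (SE 0.47, adjusted p = 0.73, limma). Trp53 differed by 2.44 (SE 0.72, adjusted p = 0.056, limma), Brca1 by 1.30 (SE 0.49, adjusted p = 0.10, limma) and Mdm2, the ubiquitin ligase of p53, by 0.99 (SE 0.42, adjusted p = 0.13, limma).

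No gene of DNA replication or mitosis passed. Top2a, a marker of dividing cells, averaged 2241 ± 1279 (SD, n = 4) over the tumors and 1340 ± 173 (SD, n = 2) over the glands (log2 difference 0.59, SE 0.57, adjusted p = 0.49, limma). The Myc family members Mycl and Mycn differed by 1.07 (SE 0.51, adjusted p = 0.17, limma) and 0.46 (SE 1.19, adjusted p = 0.82, limma), and Mycn was highest in tumor 3, at 1404. Cdc25a, a phosphatase that activates cyclin-dependent kinases, and Wee1, a kinase that inhibits them, differed by 0.17 (SE 0.60, adjusted p = 0.87, limma) and 0.05 (SE 0.56, adjusted p = 0.97, limma). On the complementary strand, 98 AFAS probes of 26 other cell cycle genes had a median log2 difference of 0.60, against 0.44 over all AFAS probes, and 0 passed the adjusted threshold in limma. At an unadjusted p under 0.05, 10 of these 98 were higher and 1 lower in limma, against 13.0% and 3.26% of all AFAS probes. The direction of this background depended on the scaling. Of all AFAS probes, 227 were higher and 57 lower as deposited, 129 and 175 under quantile normalization, and 148 and 144 with the 75th percentile. The methods' t-test, on linear signals, called 8 of the 98, against 9.14% of all AFAS probes. These shares are no larger than the background.

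**Figure D3:**
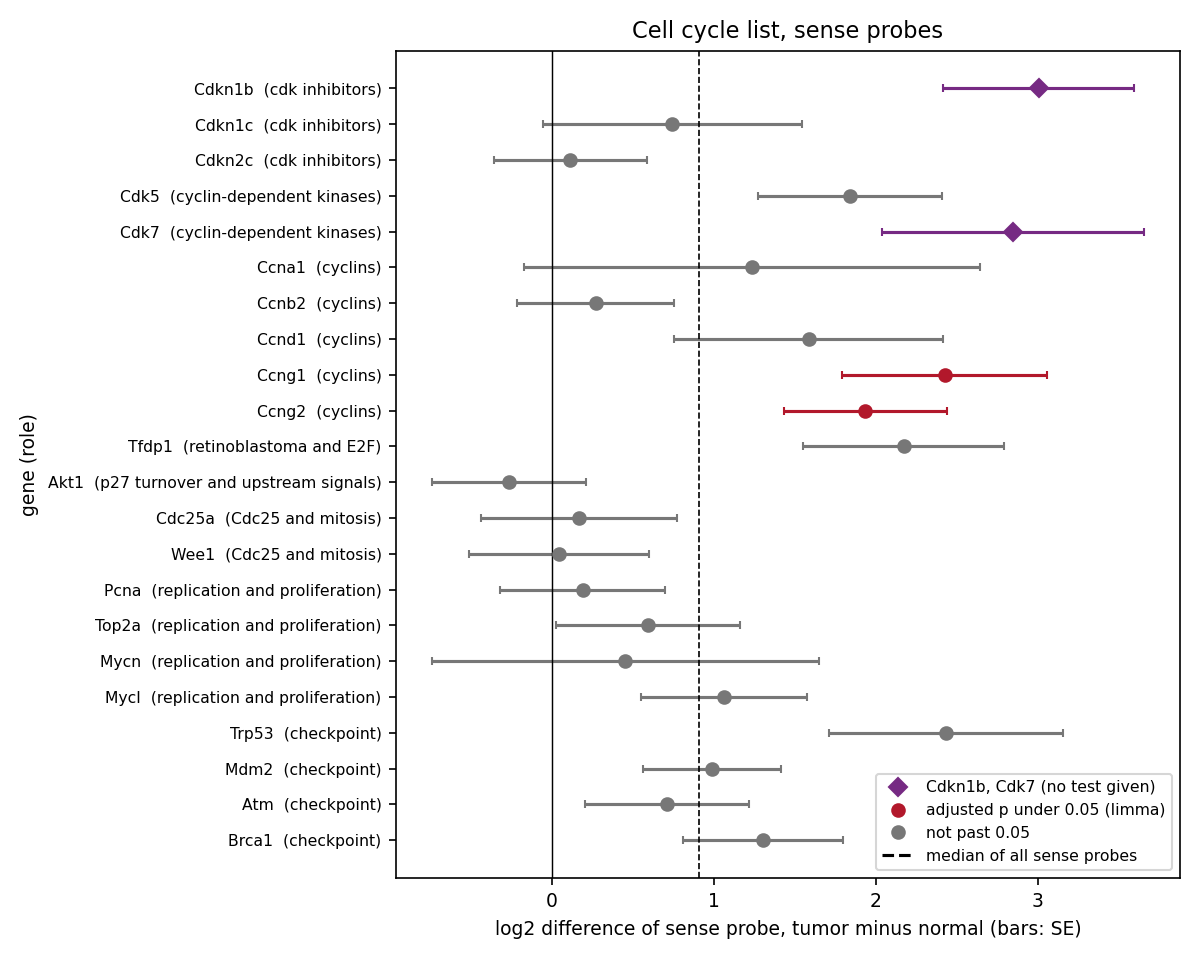
Log2 difference of the sense probe between tumors and normal glands, with standard errors, for 22 of the 23 cell cycle genes with a sense probe, with the role in parentheses. Cdkn1b and Cdk7 (diamonds) are given without a test, Ccng1 and Ccng2 (red) passed the adjusted threshold, and the dashed line marks the median of all sense probes, 0.91.

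Markers of cell types were read on the same arrays. In bulk tissue, fewer cells of a type and less RNA per cell cannot be told apart. Of 3 luminal epithelial markers on the array, Krt18, a keratin of luminal cells, averaged 22520 ± 11895 (SD, n = 4) over the tumors and 2117 ± 744 (SD, n = 2) over the glands (log2 difference 3.33, SE 0.56, adjusted p = 0.0207, limma), whereas Krt19 (2.31, SE 0.87, adjusted p = 0.10) and Prlr (3.54, SE 1.06, adjusted p = 0.057) did not pass. In all 3 markers, every tumor lay above both normal glands. The Krt18 probe was linked to its gene only by its place in the value table, as the Cdk7 sense probe was, and those of Krt19 and Prlr by accession. Krt18 passed in 10 of the 15 fits run in limma, with an adjusted p from 0.00345 to 0.302. It did not pass with the replicate number as a block or without tumor 1, tumor 4, normal gland 1 or normal gland 2. Krt18 had the highest mean signal of the 3 markers, although signals of different probes are not on a common scale. The summed signal of the 3 was 29052, 24364, 27527 and 110970 in tumors 1 to 4 and 4962 and 4164 in normal glands. Every tumor was above both glands in this sum. Tumor 4 was the highest in it, as in Cdkn1b sense, but tumor 3, the lowest of the tumors in Cdkn1b sense, was above tumor 2 in the sum.

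For leukocytes, 0 of 4 markers passed, and their summed signal was 22975, 37612, 9962 and 14131 in tumors and 8758 and 5117 in normal glands, with the highest mean signal at the Cd4 probe. All 4 had a positive log2 difference, with a median of 1.46. Every tumor lay above both normal glands at Cd4 and Csf1r, whereas the groups overlapped at Cd86 and Cd14. The myoepithelial keratin Krt14 had a log2 difference of 0.08 (SE 0.57, adjusted p = 0.94, limma), and 0 of 3 endothelial and 0 of 3 fibroblast markers passed. The milk gene Glycam1, a marker of mammary secretory cells, read 5396 or more in each tumor and 5197 and 4105 in the normal glands. Its probe was linked to the gene only by place. No marker of adipocytes from the list was on the array. The part of epithelial content in the Cdkn1b and Cdk7 differences was not tested.

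The profiles most like those of the genes were ranked by Pearson correlation of log2 signals over the 6 arrays. As 4 of the points are tumors and 2 are normal glands, any probe with a difference between the groups ranks high, and no test is given. Mxd1, a partner of Max that opposes Myc, was most like Cdkn1b sense (r = 0.993), followed by Nfe2l2, the factor of the antioxidant response (0.989), and the adaptor Crk (0.989), and 87 of 388 sense probes had r above 0.9. Over the 4 tumors alone these correlations were 0.932, 0.983 and 0.977, so the order of tumors 4, 1, 2 and 3 was shared. For Cdk7 sense the genes were Cry1 (0.990), Rpsa (0.974) and Brca1 (0.971), and over the tumors alone the values were 0.741, -0.03 and 0.999. Cdk7, Cry1 and Rpsa shared the floor value in normal gland 2, and the part of this value in the correlations over 6 arrays was not tested. The probes of Nfe2l2 and Cry1 are described as cDNA clones, as the Cdk7 sense probe is.

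On the antisense side, the AFAS probes most like Cdkn1b AFAS 02 were those of Pim1 (probe 01, r = 0.992), Fyn (probe 03, 0.984) and Pecam1 (probe 00, 0.981), and over the tumors alone r was 0.595, 0.524 and -0.395. Their likeness thus lay mainly in the step between tumors and normal glands, where Pim1 was at the floor as well. Those most like Cdk7 AFAS 02 were Pou2af1 (probe 01, 0.998), Gsta2 (probe 00, 0.997) and Ccnb2 (probe 00, 0.997). Here the tumors alone gave 0.997, 0.986 and 0.982, with tumors 1 and 4 above tumors 2 and 3 in all of them. The AFAS probe of Ccnb2, which encodes a mitotic cyclin, read 266, 159, 153 and 239 in tumors 1 to 4 and 75.8 and 71.0 in the normal glands.

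**Figure D4:**
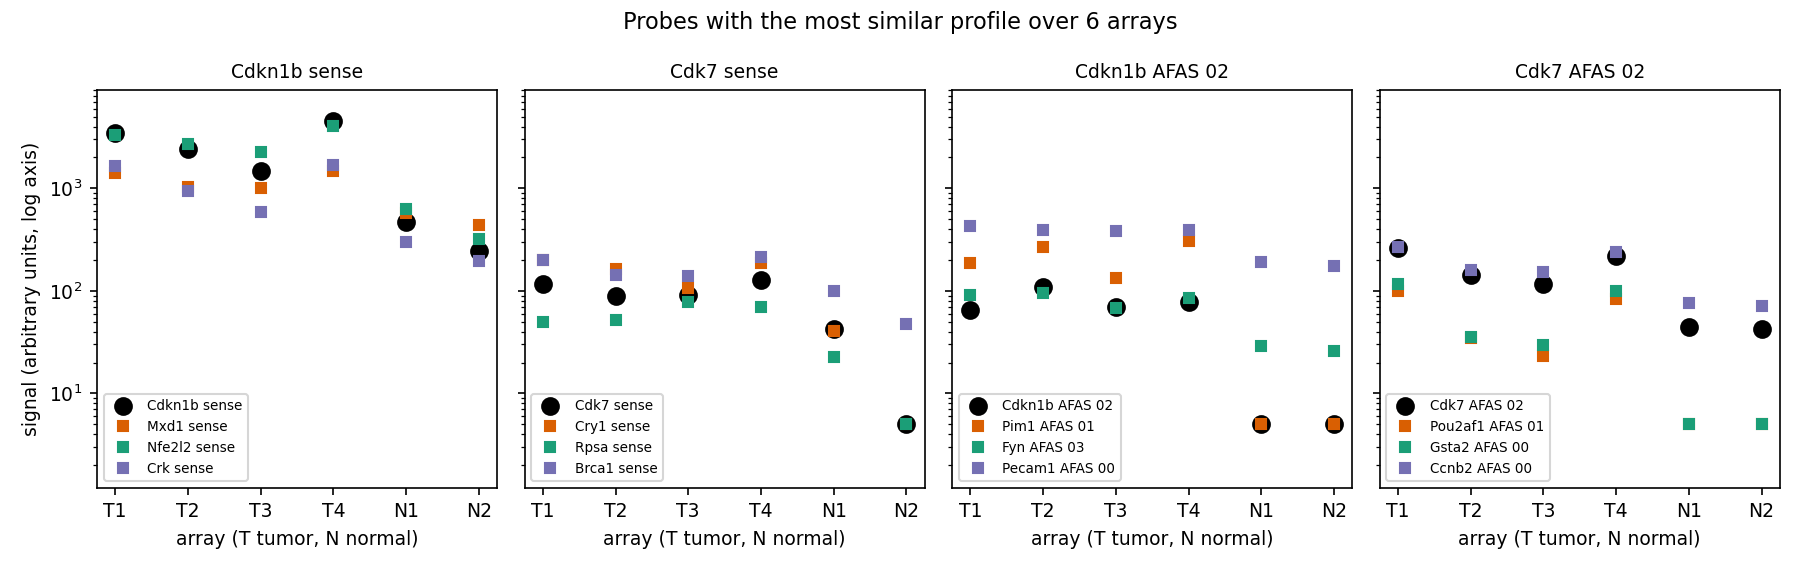
Signal on a log axis over 4 tumors (T1 to T4) and 2 normal glands (N1, N2) for 4 probes of Cdkn1b and Cdk7 (black) and, for each, the 3 probes of other genes with the highest correlation over 6 arrays (coloured). The Cdk7 AFAS 02 panel shows tumors 1 and 4 above tumors 2 and 3 in all 4 probes, and in the Cdkn1b AFAS 02 panel the tumors have no shared order.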

How the data were processed

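The authors hybridized 6 samples to 1-colour Agilent arrays and deposited intensity values: the processed signal of Feature Extraction (version 9.1.3.1 in the file headers), background-corrected, multiplied by 1 factor per array (0.957, 0.822, 1.16 and 1.05 for tumors 1 to 4) and set to a floor of 5 where it was lower or not significant. Scanner files gave intensities, flags and probe names for tumors only, so no flag is known for the normal glands, and log2 differences that involve a value at the floor depend on the floor and are no measured size. The number of arrays limits the precision.

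Table entries (2154 of 2156) were tied to named probes through the 4 tumor signals, and genes were named from RefSeq accessions. Sense probes with another accession were linked by their place in the table (81 of 404). The files name no genome build, so no coordinates are given.

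Tumors and normal glands were compared on log2 signals by the functions lmFit and eBayes of limma 3.58.1 (R 4.3.3), two-sided, with Benjamini-Hochberg adjustment within each strand and a threshold of 0.05. The methods' t-test is Student's t-test, run as an alternative. The step was tested on simulated data. Markers and other tables were computed in Python 3.11.15. The genes and lists were chosen with earlier results of these data known. A few results that this rule would name are not reported here. Named besides the 10 probes are cell cycle genes that passed, the 3 largest differences per role, and the 3 most similar probes, among those at the floor on at most 2 arrays. The other scalings (75th percentile, median, mean, quantile), a floor of 20, a filter at a mean signal of 100, the replicate number as a block and each array left out were tried, and for detection and spread other flags and normexp with an offset of 50. Replicate numbers of tumors and normal glands share nothing in the labels but the number.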

Additional observations from a re-analysis of the deposited data

Results flagged for a closer look

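Dixon's test for a sample far from the others was applied to the log2 signals of the 4 tumors for 31 probes, the 10 of Cdkn1b and Cdk7 and the 21 sense probes of other cell cycle genes, and 2 exceeded the critical gap. Chance flags about 1 in 20 groups of unselected values that differ from each other, and this rate does not hold for the 31 as a set. Cdkn1b and Cdk7 were chosen by tests on some of these tumor values, and those tests favoured a small spread. One Cdkn1b AFAS probe was at the floor in all 4 tumors, so it had no range and no gap. The 2 flags are therefore given as a description. Cdkn1b AFAS probe 01 had a gap of 0.848 of its range, because tumor 2 read 1487 while tumors 1, 3 and 4 lay at 68.5 to 109. Ccna1 sense, for a cyclin of germ cells, had a gap of 1.0, because tumor 1 read 155 and the other 5 arrays were at the floor. With 3 tumors tied at the floor, any signal in the fourth gives this gap.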

How the results depend on the processing

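Scaling set how many probes passed in limma. The median log2 difference of all probes was 0.50 as deposited, 0.10 after scaling to the 75th percentile, 0.23 to the median, 0.52 to the mean and -0.03 after quantile normalization. The count of sense probes that passed was 59 as deposited, 23 with the 75th percentile, 30 with the median, 24 with quantile normalization and 84 with the mean. Of the 23 cell cycle genes, members included, 3 passed as deposited, 1 each with the 75th percentile, the median and quantile normalization, 7 with the mean, 6 with the filter at 100 and 6 with a trended, robust fit. These counts are a description, since the 3 include Cdkn1b, which was chosen by this call. The other 2, Ccng1 and Ccng2, did not pass with the 75th percentile, the median or quantile normalization. Of AFAS probes 8 passed as deposited, 4 with a floor of 20 and 5 with the filter at 100, and under quantile normalization 5 were higher and 2 lower. The methods' t-test called 64 sense and 159 AFAS probes on linear signals before adjustment and 0 of either after it (0 cell cycle genes), and on log2 signals 122 sense and 211 AFAS probes and 9 cell cycle genes before adjustment, and 1, 0 and 0 after it. With the replicate number as a block 0 sense probes, 0 AFAS probes and 0 cell cycle genes passed in limma, against 149 sense and 270 AFAS probes at an unadjusted p under 0.05. Samples of the same number did not deviate together (correlations of 0.0232 and -0.0228 for sense probes, -0.00904 and 0.057 for AFAS probes).

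Leaving out 1 array at a time moved the counts from 0 to 89 for sense probes, from 0 to 15 for AFAS probes (7 higher and 8 lower without tumor 2) and from 0 to 6 for cell cycle genes. No sense probe passed without tumor 4 or normal gland 2, with 136 and 51 at an unadjusted p under 0.05 in limma, and 1 passed without tumor 1 and 14 without normal gland 1. AFAS probes that passed fell to 0 when tumor 3, tumor 4, normal gland 1 or normal gland 2 was left out, and 310, 249, 197 and 104 were then at an unadjusted p under 0.05. Krt18 passed in 10 of 15 fits, and Ccng1 and Ccng2 in 6 of 15 each.

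For the 9 probes of Cdkn1b and Cdk7 above the floor, 101 of 108 log2 differences stayed within the spread between replicates. Cdkn1b AFAS 02, whose value the floor of both normal glands sets, moved from 3.98 to 3.58 with the 75th percentile, 3.17 with quantile normalization and 1.98 with a floor of 20, and Cdk7 AFAS 00 from 0.68 to 0.28 and 0.24 under those scalings. Without 1 array, Cdk7 sense ranged from 1.30 to 4.40, Cdkn1b sense from 2.54 to 3.47 and Cdk7 AFAS 02 from 1.82 to 2.21. Signs turned in 10 of the 108, at Cdkn1b AFAS 01, 03 and 04 and Cdk7 AFAS 01, including Cdkn1b AFAS 03 at 0.05 and AFAS 04 at -0.44 with the replicate block. Detection fell from 37 of 40 spots to 22 at a signal of at least 100. The causes were not tested.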

Other observations

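A single tumor standing far above every other array, as tumor 2 did at Cdkn1b AFAS probe 01, was counted over the whole array after that value was seen. With signals raised to a floor of 20, a setting also chosen after seeing the data, 0 AFAS probes in tumor 1, 3 in tumor 2, 14 in tumor 3 and 0 in tumor 4 reached 8 times the next array, out of 1750. The 3 in tumor 2 belonged to Cdkn1b, Hoxb5 and Tgfbr1. With the floor of 5 there were 10 in tumor 1 and the same numbers in the other tumors, so the count in tumor 1 rested on probes at the floor elsewhere. Among 404 sense probes there were 3, 1, 1 and 2 in tumors 1 to 4 with the floor of 20. The Cdkn1b sense signal of tumor 2, at 2408, lay between those of tumors 1 and 3.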
